A study of Mus musculus with 3 samples.

Results

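The transcripts of 6 secreted proteins of the bone morphogenetic protein (BMP) system were followed across the cells of the mouse kidney: the antagonist gremlin 1 (Grem1), the BMP-binding protein Bmper and the ligands Bmp2, Bmp4, Bmp6 and Bmp7. They were taken by gene symbol from the 32285 genes counted in each library, and all 6 were found. The set was chosen by its UMI levels in the same 3 libraries, across connecting tubule, principal and other cells, so every level and ratio is a description with no test. The libraries were single-cell libraries, made by droplet capture (10x Genomics), of whole kidneys from 28-week-old male mice. The groups were db/db mice given a 60% fructose diet (db/db fructose), db/db mice given a fructose-free control diet (db/db control) and db/m mice given the control diet (db/m control). Each diet began at 8 weeks of age and ran for 20 weeks. The db/db mouse carries the leptin receptor mutation on both alleles in every tissue and is obese and diabetic, and the db/m mouse carries it on a single allele. Each group had 1 library, and the labels do not say how many mice gave it. No difference could therefore be tested against the spread between animals, and every interval is an exact 95% interval that covers counting error only.

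BMP ligands bind pairs of type I and type II serine/threonine kinase receptors, which phosphorylate SMAD1, SMAD5 and SMAD9. These join SMAD4 in the nucleus and raise genes such as the Id family. Gremlin 1 binds BMP ligands outside the cell and keeps them from the receptors, while Bmper, the vertebrate crossveinless-2, can hold BMPs back or promote their signal. In the developing kidney Grem1 is needed for outgrowth of the ureteric bud, the origin of the collecting duct, and Bmp7 is needed to keep nephron progenitors. In the adult kidney the connecting tubule and the principal cells of the collecting duct reabsorb sodium and water under aldosterone and vasopressin.

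The libraries held 42028885, 52704335 and 31660184 UMIs (unique molecules) in 20383, 26513 and 13524 barcodes in the db/db fructose, db/db control and db/m control libraries, of which 16049, 16227 and 9940 were kept as cells. Median depth was 1531, 1628 and 1679 UMIs per kept cell and the median mitochondrial share was 10.6%, 24.6% and 15.1% in the same order. Of the 41406 distinct barcodes of kept cells, 803 occurred in more than 1 library. Cells were clustered without the members and the other genes of a BMP pathway list, and clusters were named from marker lists, hence "-like". Libraries were compared in the 11 named classes that reached 100 cells in each. A further 1279, 3217 and 301 cells of db/db fructose, db/db control and db/m control lay in 3 clusters that met no name and were not compared. A level is the number of UMIs of a gene per 1000000 UMIs of its class in a library (CPM). A gene was measured in a comparison if 1 of its libraries reached 10 CPM, and called higher or lower when the ratio was at least 1.5-fold with an interval that left out 1. The db/db control library stands in both comparisons, db/db fructose over db/db control and db/db control over db/m control, so these are not independent of each other.

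Principal-like cells numbered 146, 175 and 236 and connecting tubule-like cells 219, 215 and 137 in the db/db fructose, db/db control and db/m control libraries. A further 488, 477 and 362 cells from the same 2 clusters fell into 3 sub-clusters led by genes of other segments. They were led by Egf and Slc12a3, by Kap and Cyp4b1 and by Slc34a1 and Slc5a12, and were left unnamed and out of the classes compared. In principal-like cells Aqp2, the vasopressin-regulated water channel, was at 25998, 16242 and 20333 CPM, and all 11 principal cell markers were detected in each library. In connecting tubule-like cells Calb1, the calcium-buffering calbindin, was at 3873, 2977 and 1828 CPM, and all 8 connecting tubule markers were detected. Of these, Trpv6 alone was lower there, at 3.69, 3.09 and 9.11 CPM, than in principal-like cells, at 62.7, 19.1 and 13.3 CPM. All 11 principal cell markers were also detected in connecting tubule-like cells, Aqp2 at 8033, 4009 and 4993 CPM. Detection alone therefore does not tell the 2 classes apart. Genes leading the connecting tubule-like cells included Clu and Spp1, and those leading the principal-like cells included Lcn2, which are also raised in injured tubules. All 7 fibroblast markers were at 0 in both classes in every library.

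In mm10, Grem1 (113746164 to 113758646, minus strand), Bmp2 (133552159 to 133562885, plus strand) and Bmp7 (172868012 to 172940321, minus strand) lie on chromosome 2. Bmp4 lies on chromosome 14 (46383520 to 46390669, minus strand), Bmp6 on chromosome 13 (38345107 to 38500302, plus strand) and Bmper on chromosome 9 (23223076 to 23485200, plus strand).

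Grem1 was a gene of the connecting tubule and principal cells. Connecting tubule-like and principal-like cells together held 77.5% of its 111 UMIs in kept cells of the db/db fructose library, 57.5% of 346 in the db/db control library and 86.5% of 170 in the db/m control library. Its level was highest in the db/db control library in both classes. Of the members with an upstream sequence in the reference, Grem1 and Bmper were called higher in db/db control than in db/m control and lower in db/db fructose than in db/db control in the class where each led. Their upstream sequences are therefore shown: the 250 bases before the annotated start, from RefSeq (GRCm38.p6), with matches to the searched motifs in capitals.
Grem1, chr2:113758649-113758898, minus strand: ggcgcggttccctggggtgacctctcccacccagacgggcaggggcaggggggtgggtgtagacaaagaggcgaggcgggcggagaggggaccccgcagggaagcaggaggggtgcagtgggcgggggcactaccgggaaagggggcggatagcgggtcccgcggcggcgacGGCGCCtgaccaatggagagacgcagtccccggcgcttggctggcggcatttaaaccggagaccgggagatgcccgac
Bmper, chr9:23222826-23223075, plus strand: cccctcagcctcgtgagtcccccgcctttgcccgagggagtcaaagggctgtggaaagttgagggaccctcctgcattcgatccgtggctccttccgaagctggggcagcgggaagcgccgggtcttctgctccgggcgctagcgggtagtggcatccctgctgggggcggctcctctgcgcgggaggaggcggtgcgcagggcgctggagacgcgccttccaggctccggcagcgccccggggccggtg

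Both sequences were rich in G and C, at 72% for Grem1 and 71.6% for Bmper, against a median of 52.4% over the 32851 upstream sequences of the table. Each held 24 CpG dinucleotides, against a median of 6. Both strands were searched for 5 short motifs, which did not overlap each other. These were the GC-rich SMAD site GGCGCC, the E-box CACGTG, the GATA site GATAAG, the TGACG core of the cAMP response element and the TATAAA of the TATA box. The Grem1 sequence held 1 match, to GGCGCC, beginning 78 bases before the start, and the Bmper sequence held none. GGCGCC occurred in 9.59% of all upstream sequences, CACGTG in 6.02%, GATAAG in 6.55%, TGACG in 17.8% and TATAAA in 12.4%. The letters alone do not show a binding site. Of the 6 members, 4 were in the table, and Bmp2 and Bmp7 were not matched.

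In principal-like cells Grem1 was at 24.5 CPM (23 UMIs, interval 15.5 to 36.7) in db/db fructose, 151 CPM (126 UMIs, 126 to 180) in db/db control and 76.9 CPM (121 UMIs, 63.8 to 91.9) in db/m control. The db/db control library was high, the db/db fructose library low, and no interval overlapped another. The log2 ratio was -2.62 (-3.33 to -1.98) for db/db fructose over db/db control, a 6.17-fold lower level. It was 0.97 (0.60 to 1.34) in db/db control over db/m control, a 1.96-fold higher level.

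In connecting tubule-like cells Grem1 was at 58.1 CPM (63 UMIs, 44.6 to 74.3) in db/db fructose, 113 CPM (73 UMIs, 88.5 to 142) in db/db control and 47.4 CPM (26 UMIs, 31.0 to 69.4) in db/m control. Here the db/db fructose and db/m control intervals overlapped and the db/db control interval lay above both. The log2 ratio was -0.96 (-1.47 to -0.45) for db/db fructose over db/db control and 1.25 (0.59 to 1.96) in db/db control over db/m control. In the db/db fructose library 13 of the 63 UMIs came from a single cell. With the cell of most Grem1 UMIs left out of each library, the levels were 46.4, 106 and 37.0 CPM in db/db fructose, db/db control and db/m control.

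Over both named classes together Grem1 was at 42.5 CPM (34.0 to 52.4) in db/db fructose, 134 CPM (116 to 154) in db/db control and 69.3 CPM (58.5 to 81.4) in db/m control. For db/db fructose over db/db control the log2 ratio was -1.66 (-2.04 to -1.29), and for db/db control over db/m control 0.96 (0.64 to 1.27). The unnamed sub-clusters held 11, 66 and 17 Grem1 UMIs. Their make-up differed: the sub-cluster led by Egf and Slc12a3 held 440, 437 and 71 of their cells in db/db fructose, db/db control and db/m control, and the one led by Kap and Cyp4b1 held 6, 11 and 279. Within the first of these Grem1 was at 10.4 CPM (7 UMIs, 4.17 to 21.4), 62.1 CPM (49 UMIs, 45.9 to 82.1) and 16.8 CPM (2 UMIs, 2.03 to 60.5).

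**Figure D1:**
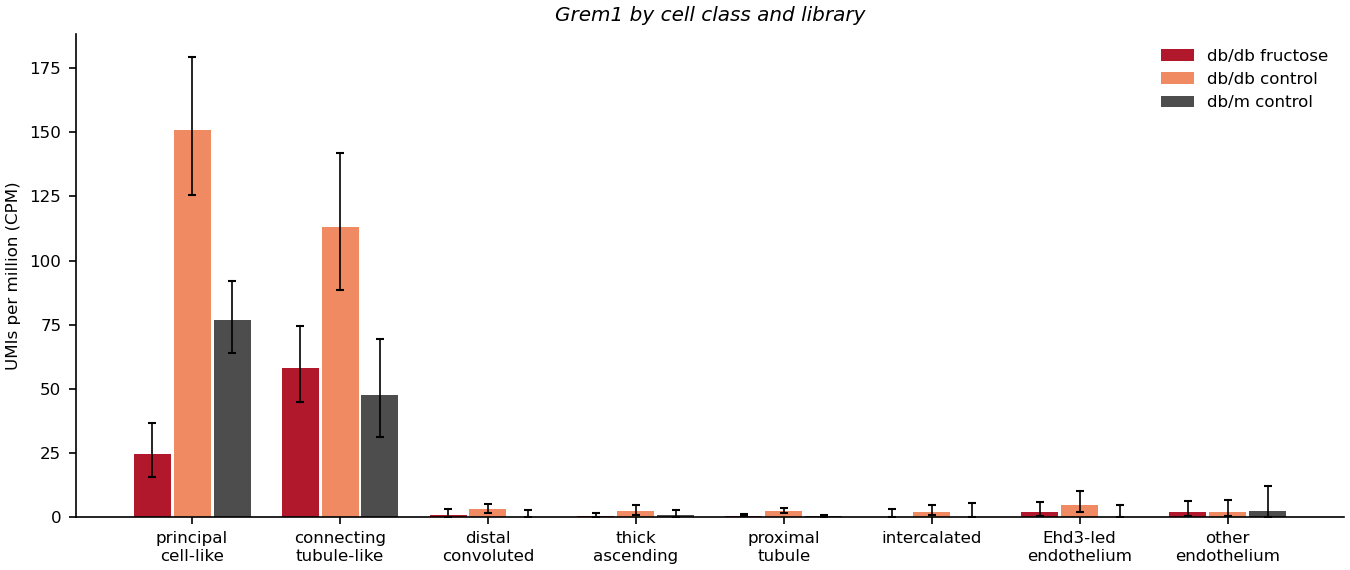
Grem1 level (CPM) by cell class on the horizontal axis, with 1 bar per library and exact 95% Poisson intervals for counting error. In principal-like cells the bars stand at 24.5, 151 and 76.9 CPM in db/db fructose, db/db control and db/m control. In connecting tubule-like cells they stand at 58.1, 113 and 47.4 CPM, and in the remaining classes drawn none passes 4.61 CPM.

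In db/db fructose over db/db control, Grem1 was the 1 called lower of 2 members measured in each of principal-like and connecting tubule-like cells, where 2.02% and 2.62% of all genes measured were called lower. In db/db control over db/m control it was the 1 called higher of 2 there, where 3.59% and 2.12% of all genes were. The median log2 ratio over all genes measured was 0.22 in principal-like and 0.36 in connecting tubule-like cells for db/db fructose over db/db control. For db/db control over db/m control it was -0.09 and -0.24, so each Grem1 ratio had the sign opposite to the median of its class.

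Several measures moved with these groups, and their part in the Grem1 differences was not tested. Median mitochondrial shares were 7.40%, 16.5% and 9.85% in principal-like cells and 12.8%, 32.1% and 19.0% in connecting tubule-like cells of db/db fructose, db/db control and db/m control. With mitochondrial UMIs left out of the totals, or only cells of at most 30% mitochondrial UMIs used, Grem1 was called the same way in both classes. The summed connecting tubule markers stood at 45210, 23186 and 16106 CPM in connecting tubule-like cells, and the summed principal cell markers at 45917, 31721 and 39351 CPM in principal-like cells. Connecting tubule markers also differed within principal-like cells, S100g at 720, 249 and 43.8 CPM and Klk1 at 198, 352 and 40.7 CPM. The summed proximal tubule markers, with all 17 detected, were at 1534, 1483 and 1668 CPM in principal-like cells.

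A larger share of principal-like cells held Grem1 in the db/db control library. Before thinning, 12.3% of 146 cells (18 cells, exact binomial interval 7.47% to 18.8%) held a Grem1 UMI in db/db fructose, 34.3% of 175 (60 cells, 27.3% to 41.8%) in db/db control and 18.2% of 236 (43 cells, 13.5% to 23.7%) in db/m control. Thinned to 1000 UMIs per cell, with no cell left out, the shares were 0.685% (1 cell), 13.1% (23 cells) and 8.47% (20 cells). The db/db fructose value is 1 cell, so no change is read from the thinned share there.
Lymphocyte-like cells, which should lack Grem1, gave 0 of 61, 1 of 64 and 0 of 59 thinned cells, or 0%, 1.56% and 0%. Proximal tubule-like cells gave 0.0440%, 0.284% and 0.0426% of 6824, 5996 and 4694. Median depths before thinning were 5988, 4340 and 6536 UMIs in principal-like cells and 2009, 1688 and 2272 UMIs in the lymphocyte-like cells that could be thinned. In both control-diet libraries the principal-like share stood above these.

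Proximal tubule markers, which lymphocyte-like cells should lack, stood in those cells at 64.1%, 53.7% and 53.4% of their level over the whole library in db/db fructose, db/db control and db/m control. This was taken as the share of free RNA. At those shares free RNA would bring 2.30, 4.47 and 3.07 CPM of Grem1 to a class. The levels in principal-like and connecting tubule-like cells lay above this in every library. For Bmp4 it would bring 16.2, 10.1 and 11.9 CPM, for Bmp6 34.5, 23.5 and 17.99 CPM and for Bmp7 16.4, 12.4 and 12.4 CPM. The share was not the same in every class: in principal-like cells the proximal tubule markers were at 12.6%, 17.8% and 14.2% of their library level.

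Among principal-like cells with a Grem1 UMI, 8 of 18, 9 of 60 and 15 of 43 also held Bmp7 in db/db fructose, db/db control and db/m control. Among connecting tubule-like cells with a Grem1 UMI, 7 of 32, 12 of 45 and 3 of 13 did. The share of all cells of each class with Bmp7 is not given beside these counts, so no link between Grem1 and Bmp7 is read from them. Cells with Grem1 UMIs held Aqp2 in every case in both classes. Aqp2 was at 4009 CPM or more in both classes in every library, so this does not set the Grem1 cells apart.

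Outside connecting tubule-like cells, principal-like cells and the unnamed sub-clusters Grem1 was close to 0. Among compared classes its next levels were in Ehd3-led endothelium-like cells, at 1.95, 4.61 and 0 CPM (3, 6 and 0 UMIs), and in the other endothelium-like cells, at 1.68, 1.83 and 2.14 CPM. Mononuclear phagocyte-like cells and mural-like cells, a class with markers of pericytes, mesangial cells and vascular muscle, had no Grem1 UMI in any library. The genes most like Grem1, by Pearson correlation of log2(CPM + 10) over 33 class and library points that share libraries and depth, were Kcne1 at 0.94, Hsd11b2 at 0.92 and Kif26b at 0.92. Hsd11b2 inactivates glucocorticoids in aldosterone target cells.

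Bmp7, a ligand that gremlin 1 binds, was present in the same distal cells without a called difference as counted. In principal-like cells it was at 59.5 CPM (56 UMIs, 45.0 to 77.3) in db/db fructose, 43.1 CPM (36 UMIs, 30.2 to 59.6) in db/db control and 50.8 CPM (80 UMIs, 40.3 to 63.3) in db/m control. In connecting tubule-like cells it was at 51.6 CPM (56 UMIs), 63.4 CPM (41 UMIs) and 60.2 CPM (33 UMIs) in the same libraries. All intervals within each class overlapped. The log2 ratios of db/db fructose over db/db control were 0.47 (-0.16 to 1.11) in principal-like and -0.30 (-0.90 to 0.32) in connecting tubule-like cells. With median-of-ratios size factors the second was called lower, at -0.63 (-1.24 to -0.02). The same ratios in db/db control over db/m control were -0.24 (-0.85 to 0.35) and 0.08 (-0.62 to 0.78).

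Bmp7 was also found along the rest of the nephron. Thick ascending limb-like cells had 36.7, 36.4 and 44.5 CPM, distal convoluted tubule-like cells 33.4, 28.9 and 36.4 CPM, and proximal tubule-like cells 24.8, 23.2 and 19.5 CPM in db/db fructose, db/db control and db/m control. Both endothelium-like classes were low, between 6.10 and 8.38 CPM, which is under the free RNA estimate of each library. Podocyte-like cells had the highest mean level, at 184 CPM (6 UMIs), 137 CPM (3 UMIs) and 82.2 CPM (27 UMIs), but from only 12, 7 and 105 cells, and their libraries were not compared. Connecting tubule-like cells and principal-like cells came next, and their intervals overlapped in 2 of the 3 libraries or more with those of their neighbours in the order. The genes most like Bmp7 were Nudt4 at 0.93, the collagen receptor gene Ddr1 at 0.92 and the potassium channel gene Kcnj16 at 0.92.

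**Figure D2:**
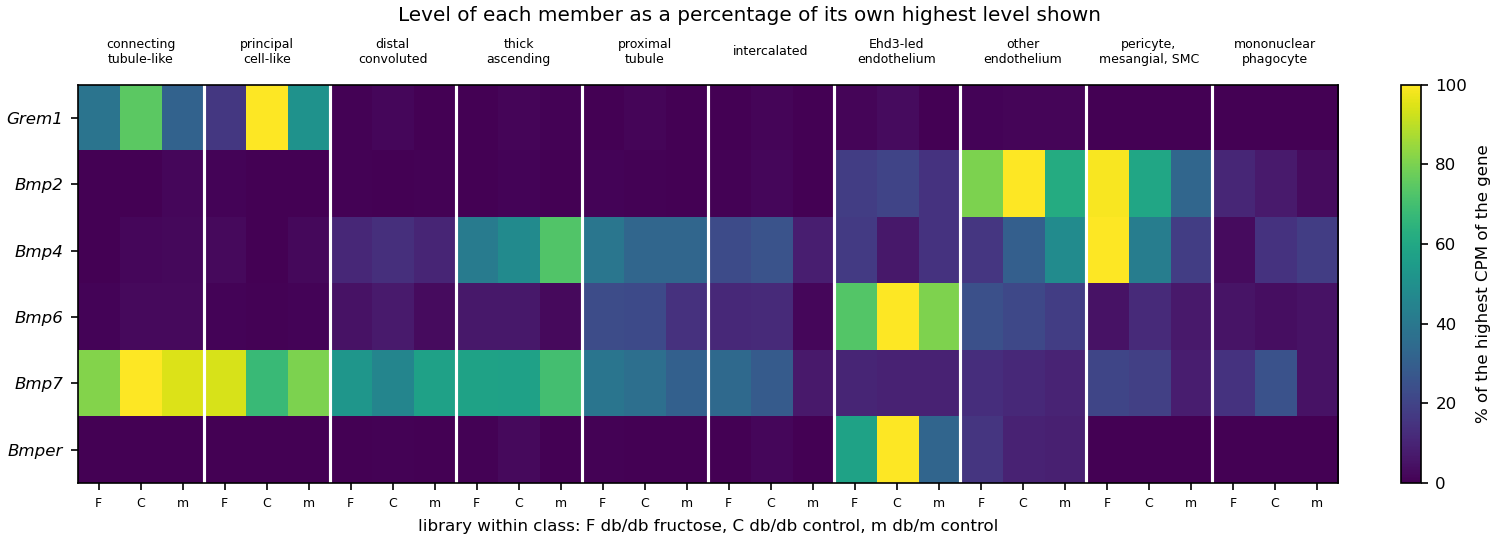
Level of each member in 10 classes, with the db/db fructose (F), db/db control (C) and db/m control (m) libraries side by side, coloured as a percentage of that gene's own highest CPM among those shown. Grem1 is bright in connecting tubule-like and principal-like cells, Bmp6 and Bmper in Ehd3-led endothelium-like cells, Bmp2 in the other endothelium-like and mural cells, and Bmp7 along the distal nephron.

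Bmper was a gene of the Ehd3-led endothelium-like cells, which held 65.2%, 73.3% and 61.9% of its 66, 86 and 21 UMIs in kept cells of db/db fructose, db/db control and db/m control. Ehd3 marks glomerular endothelium. There Bmper was at 28.0 CPM (43 UMIs, 20.2 to 37.7) in db/db fructose, 48.4 CPM (63 UMIs, 37.2 to 61.9) in db/db control and 15.9 CPM (13 UMIs, 8.45 to 27.1) in db/m control. The db/db control library was again the highest, its interval just meeting that of db/db fructose and lying above that of db/m control. The log2 ratio was -0.79 (-1.39 to -0.21) for db/db fructose over db/db control and 1.61 (0.73 to 2.60) in db/db control over db/m control. Of 4 members measured there, Bmper was the 1 called lower in the diet comparison, where 1.93% of all genes were, and the 1 called higher in the genotype comparison, where 4.25% were. In these cells the summed endothelial markers were at 16536, 14840 and 16744 CPM, podocyte markers at 1104, 816 and 969 CPM, connecting tubule markers at 812, 1304 and 227 CPM and erythroid markers at 25.4, 535 and 18.3 CPM in db/db fructose, db/db control and db/m control. Their part in the Bmper differences was not tested.

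The other endothelium-like cells had less Bmper, at 7.54, 4.57 and 4.28 CPM (9, 5 and 2 UMIs). A cluster led by Nos1 and Pappa2, genes of the macula densa, had 10.2, 11.8 and 34.2 CPM (9, 8 and 5 UMIs) in 191, 178 and 54 cells, too few to compare. No Bmper UMI was found in connecting tubule-like, principal-like, mural or phagocyte-like cells. Over both endothelium-like classes the log2 ratio of db/db fructose over db/db control was -0.58 (-1.12 to -0.03) and was not called, though 3 of 8 alternatives called it, while db/db control over db/m control, at 1.28 (0.46 to 2.20), was called higher. The share of Ehd3-led cells with a Bmper UMI was 7.07%, 10.8% and 3.78% (40 of 566, 60 of 556 and 11 of 291) before thinning. Thinned to 1000 UMIs it was 3.08%, 3.53% and 1.10%, with intervals that overlapped between all libraries. The genes most like Bmper were Edil3 at 0.96, Coro2b at 0.95 and Qrfpr at 0.95, Edil3 on only 101 UMIs.

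Bmp6, known in liver endothelium as the inducer of hepcidin, was the member with most UMIs, 1798, 1640 and 882 in kept cells of db/db fructose, db/db control and db/m control. It was highest in the same Ehd3-led cells, at 222 CPM (342 UMIs, 200 to 247) in db/db fructose, 303 CPM (395 UMIs, 274 to 335) in db/db control and 245 CPM (201 UMIs, 213 to 282) in db/m control. The db/db control interval overlapped that of db/m control and not that of db/db fructose. The log2 ratio of db/db fructose over db/db control was -0.45 (-0.66 to -0.24), a 1.36-fold lower level that did not reach 1.5-fold. It was called lower at -0.66 with size factors and at -0.62 with mitochondrial UMIs left out. That of db/db control over db/m control was 0.31 (0.06 to 0.56), also not called. The other endothelium-like cells had 74.6, 65.7 and 55.7 CPM, with overlapping intervals.

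Bmp6 was also a gene of proximal tubule-like cells, at 70.0 CPM (890 UMIs, 65.5 to 74.8) in db/db fructose, 68.6 CPM (735 UMIs, 63.8 to 73.8) in db/db control and 43.8 CPM (468 UMIs, 40.0 to 48.0) in db/m control. Both db/db libraries lay above db/m control. The log2 ratio of db/db control over db/m control was 0.65 (0.48 to 0.82), called higher as 1 of 3 members measured, where 7.5% of all genes were. With doublets kept it was 0.54 and not called. Different clusters held most of these cells: clusters 0 and 3 in db/db fructose (3711 and 2968 of 7968), clusters 0 and 1 in db/db control (2794 and 3199 of 6255), and clusters 5, 8 and 10 in db/m control (2546, 1510 and 1405 of 5790). Within the db/m control library Bmp6 was at 59.3, 46.2 and 21.8 CPM in clusters 5, 8 and 10. Within the db/db control library it was at 75.2 and 61.8 CPM in clusters 0 and 1.

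Among the unnamed clusters, 1 led by Cd74 and Sparc held Bmp6 at 110 CPM (212 UMIs), 124 CPM (34 UMIs) and 93.3 CPM (106 UMIs) in db/db fructose, db/db control and db/m control. Thick ascending limb-like cells had 19.3, 19.4 and 7.55 CPM (79, 62 and 20 UMIs) and distal convoluted tubule-like cells 15.2, 22.2 and 9.46 CPM (36, 85 and 13 UMIs) in db/db fructose, db/db control and db/m control. All 6 levels lay under the 34.5, 23.5 and 17.99 CPM that free RNA would bring at the shares of lymphocyte-like cells, so no expression is read from them. Those shares were lower in principal-like cells and are not given for these classes, and whether the levels are background was not tested. The log2 ratios of db/db control over db/m control were 1.36 (0.62 to 2.17) and 1.23 (0.38 to 2.20), past the called fold as counted, where 6.28% and 2.59% of all genes were called higher. With free RNA subtracted 0 CPM was left in every library. In connecting tubule-like and principal-like cells Bmp6 stayed under 10 CPM in every library. The genes most like Bmp6 were Sema6a at 0.91, Trib2 at 0.91 and Numb at 0.89.

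In intercalated-like cells, the acid and base secreting cells of the collecting duct, Bmp4, Bmp6 and Bmp7 were all called higher in db/db control than in db/m control. These were the 3 members measured, and 25.1% of all genes were called higher there. Bmp6 was at 34.5, 35.7 and 5.73 CPM (43, 88 and 4 UMIs), Bmp4 at 19.2, 21.5 and 7.16 CPM (24, 53 and 5 UMIs) and Bmp7 at 21.6, 18.3 and 4.30 CPM (27, 45 and 3 UMIs) in db/db fructose, db/db control and db/m control. Of the 88 Bmp6 UMIs in db/db control, 83 lay in cluster 19 of its 2 clusters. The summed proximal tubule markers in intercalated-like cells moved the same way, at 9245, 9325 and 3773 CPM, while the summed intercalated cell markers were at 4492, 4631 and 9433 CPM. Set against their library levels those proximal tubule markers stood at 76.1%, 112% and 32.1%. RNA with the make-up of the whole library, at these shares, would bring 41.0, 49.1 and 10.8 CPM of Bmp6 and 19.2, 21.1 and 7.14 CPM of Bmp4. For Bmp7 it would bring 19.5, 25.9 and 7.48 CPM. The measured levels lay close to or under these, the furthest above being Bmp7 in db/db fructose at 21.6 CPM, so no expression by intercalated-like cells is read from them. Whether these UMIs came from free RNA, from proximal tubule cells in the class or from intercalated cells was not tested.

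Bmp2, which gremlin 1 also binds, was a gene of vessels and of mural cells. In the endothelium-like cells not led by Ehd3 it was at 86.3 CPM (103 UMIs, 70.4 to 105) in db/db fructose, 108 CPM (118 UMIs, 89.2 to 129) in db/db control and 66.4 CPM (31 UMIs, 45.1 to 94.2) in db/m control. All 3 intervals overlapped. The log2 ratio of db/db control over db/m control was 0.70 (0.12 to 1.32), called higher as 1 of 3 members measured, where 3.56% of all genes were. With doublets kept it was 0.43 and not called. That of db/db fructose over db/db control was -0.32 (-0.72 to 0.07) and was not called. Ehd3-led cells had 19.5, 22.3 and 15.9 CPM, with overlapping intervals.

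In mural-like cells Bmp2 was at 107 CPM (81 UMIs, 84.7 to 133) in db/db fructose, 63.6 CPM (16 UMIs, 36.4 to 103) in db/db control and 35.8 CPM (7 UMIs, 14.4 to 73.7) in db/m control. The db/db fructose interval overlapped that of db/db control and not that of db/m control. Neither comparison was called, at 0.75 (-0.04 to 1.62) for db/db fructose over db/db control and 0.83 (-0.53 to 2.35) in db/db control over db/m control. The UMIs came mostly from a cluster led by Itga8 and Serpine2, with 78, 16 and 6 of them. That cluster held 391, 94 and 82 cells, so it was mostly of the db/db fructose library. Lymphocyte-like cells had 66.9, 0 and 23.5 CPM of Bmp2 (11, 0 and 4 UMIs) in 95, 75 and 82 cells. In connecting tubule-like and principal-like cells no library had more than 1 Bmp2 UMI. The genes most like Bmp2 were Marveld1 at 0.95, Hrct1 at 0.94 and the transcription factor gene Ebf1 at 0.94.

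Bmp4, another ligand bound by gremlin 1, was found in tubule and vascular classes. In distal convoluted tubule-like, mononuclear phagocyte-like, Ehd3-led, erythroid-like and intercalated-like cells its level lay between 2.34 and 21.5 CPM, beside free RNA estimates of 10.1 to 16.2 CPM. Those levels are not read as expression by these classes. The levels furthest above the estimate of their library, 10.1 CPM, were 21.5 CPM in intercalated-like and 16.7 CPM in erythroid-like cells of db/db control. Its highest mean level among classes compared was in thick ascending limb-like cells, at 34.9 CPM (143 UMIs, 29.5 to 41.2) in db/db fructose, 40.5 CPM (129 UMIs, 33.8 to 48.1) in db/db control and 61.5 CPM (163 UMIs, 52.4 to 71.7) in db/m control. The db/m control library was high and both db/db libraries overlapped. The log2 ratio of db/db control over db/m control was -0.60 (-0.95 to -0.26), called lower as 1 of 3 members measured, where 4.05% of all genes were. At 1.52-fold it lies just past the fold that was called, and it was not called at -0.58 with at least 500 genes per cell or at resolution 2. That of db/db fructose over db/db control was -0.21 (-0.56 to 0.14), not called, but called lower at -0.69 with free RNA subtracted.

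Proximal tubule-like cells held the most Bmp4 UMIs, with 419, 299 and 298 at 33.0, 27.9 and 27.9 CPM in db/db fructose, db/db control and db/m control, and no comparison there was called. In mural-like cells it was at 84.3 CPM (64 UMIs, 64.9 to 108), 35.8 CPM (9 UMIs, 16.4 to 68.0) and 15.3 CPM (3 UMIs, 3.16 to 44.8). The log2 ratio of db/db fructose over db/db control was 1.24 (0.22 to 2.43), called higher as 1 of 4 members measured, where 6.31% of all genes were. Of these UMIs 62, 8 and 2 lay in the Itga8 and Serpine2-led cluster. In connecting tubule-like and principal-like cells Bmp4 was at 2.13 CPM or less in every library. The genes most like Bmp4 were Kcnq1ot1 at 0.78, Mettl7a1 at 0.77 and Myef2 at 0.74, lower correlations than those of the other members.

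**Figure D3:**
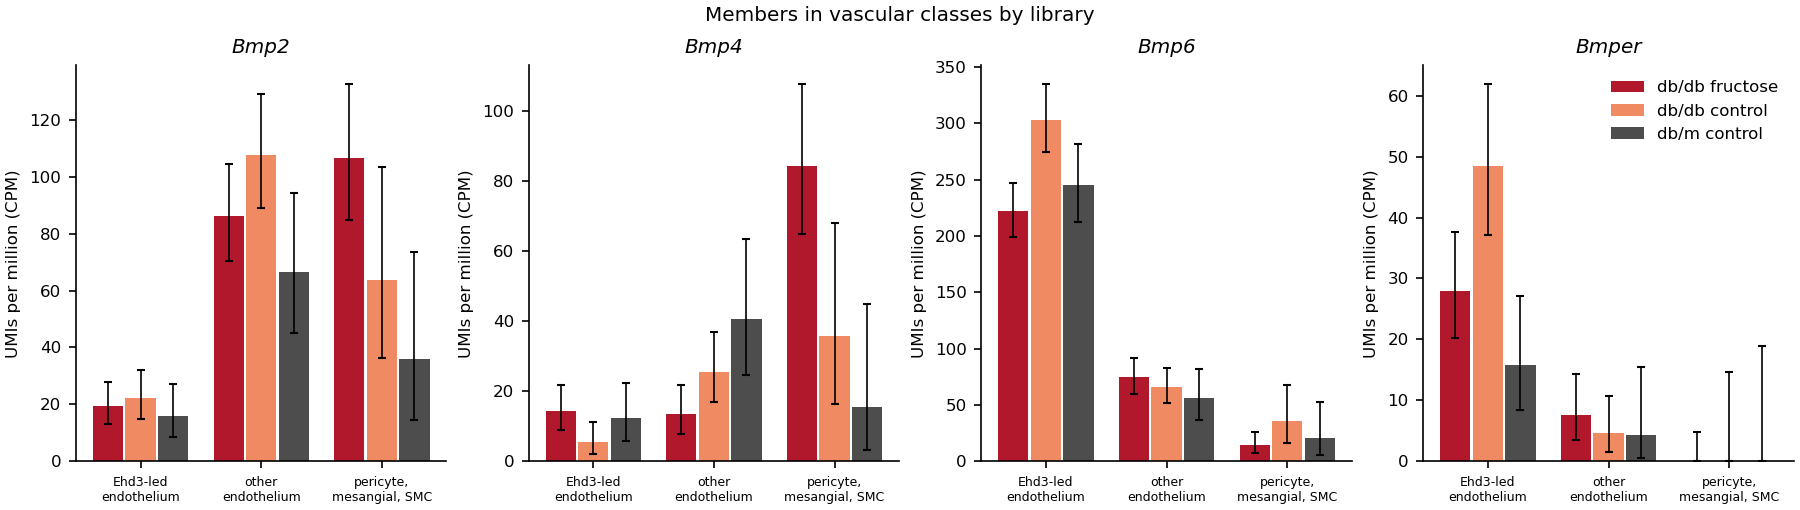
Levels (CPM) of Bmp2, Bmp4, Bmp6 and Bmper in both endothelium-like classes and in mural-like cells (labelled pericyte, mesangial, SMC), with 1 bar per library and exact 95% Poisson intervals. Bmper and Bmp6 stand highest in Ehd3-led cells (48.4 and 303 CPM in db/db control), and Bmp2 and Bmp4 reach 107 and 84.3 CPM in the mural class of db/db fructose.

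**Figure D4:**
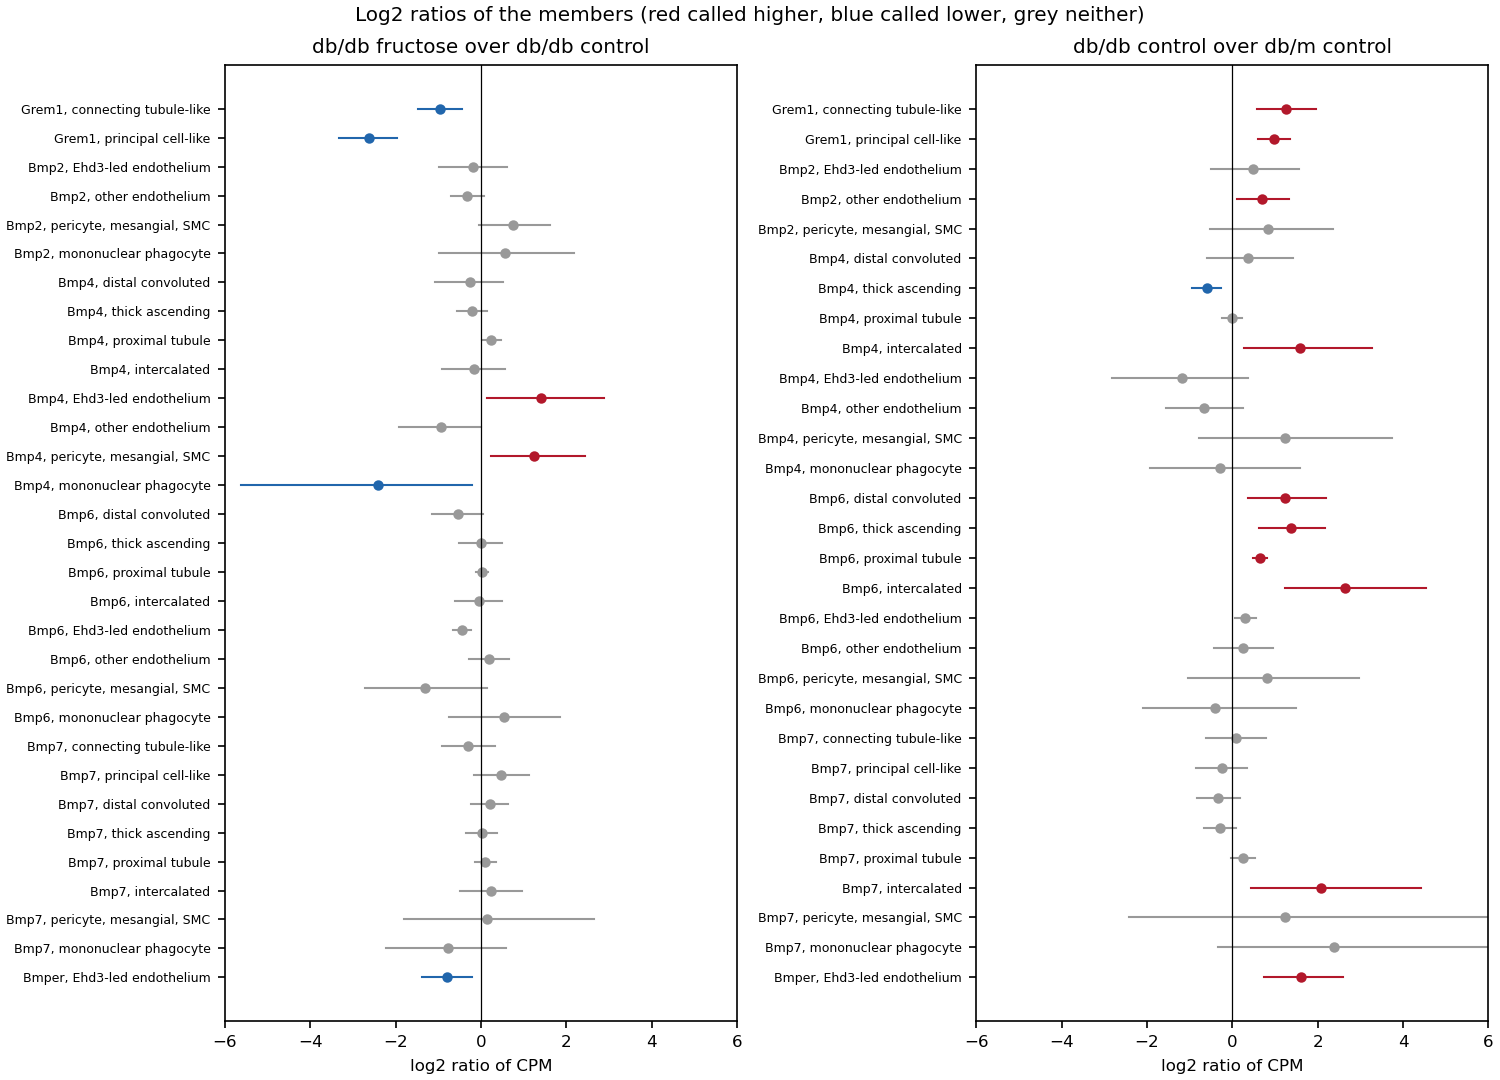
Log2 ratios of CPM with exact 95% intervals for every member measured in each class, db/db fructose over db/db control on the left and db/db control over db/m control on the right, with intervals running past 6 cut at the axis. Grem1 is called lower on the left (-2.62 in principal-like cells) and higher on the right (0.97), and no Bmp7 ratio is called outside intercalated-like cells.

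The members called per class were few. Over both connecting tubule-like and principal-like cells, Grem1 was the 1 of 2 members called lower in db/db fructose over db/db control, where 2.35% of all genes were called lower and 15.6% higher. In Ehd3-led endothelium-like cells Bmp4 was the 1 of 4 called higher, where 9.55% were, and in mononuclear phagocyte-like cells it was the 1 of 4 called lower, where 2.61% were called lower and 9.83% higher. No member was called in the other endothelium-like cells (3 measured, 7.24% of all genes higher and 1.73% lower), in both endothelium-like classes together (4, 7.79% and 1.81%) or in erythroid-like cells (3, 2.36% and 1.15%). The same held for the 3 members measured in each of proximal tubule-like (11.3% and 1.49%), thick ascending limb-like (9.5% and 1.26%), distal convoluted tubule-like (8.73% and 1.19%) and intercalated-like cells (7.82% and 2.36%). In mural-like cells 2.13% of all genes were called lower, and no member was.

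In db/db control over db/m control, Grem1 was the 1 of 2 members called higher over both connecting tubule-like and principal-like cells, where 3.48% of all genes were called higher and 10.2% lower. Bmp2 and Bmper were the 2 of 4 called higher over both endothelium-like classes, where 4.75% were called higher and 7.2% lower. No member was called in mononuclear phagocyte-like (3 measured, 4.02% higher and 9.38% lower), mural-like (4, 1.92% and 4.74%) or erythroid-like cells (2, 4.73% and 2.49%). None was called lower in Ehd3-led (7.77%) or other endothelium-like (6.23%), proximal tubule-like (12.1%), distal convoluted tubule-like (8.74%) or intercalated-like cells (13.6%), percentages that give the share of all genes called lower.

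The other 58 genes of the BMP pathway list reported here were counted in the same cells. In connecting tubule-like cells 25 were measured in db/db fructose over db/db control, of which 7 were called higher and 0 lower, where 19.9% and 2.62% of all genes were. Their median log2 ratio was 0.64, against 0.36 over all genes measured. In principal-like cells 27 were measured, of which 4 were called higher and 1 lower, where 10.5% and 2.02% of all genes were, with a median of 0.45 against 0.22. Calls were not confined to these classes. In distal convoluted tubule-like cells 7 of 24 were called higher, where 8.73% of all genes were, and in intercalated-like cells 7 of 26, where 7.82% were. In Ehd3-led endothelium-like cells 1 of 29 was, where 9.55% were.

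Among these, Bmp3, a ligand that opposes other BMPs, was called lower in principal-like cells at -1.47, on 15.9 CPM in db/db fructose and 44.3 CPM in db/db control. Sostdc1, an antagonist of BMP and Wnt signals, was called higher in both, at 589 CPM in db/db fructose and 266 CPM in db/db control in connecting tubule-like cells and at 285 and 135 CPM in principal-like cells. Fstl1, a secreted BMP-binding protein, was higher at 59.0 against 7.74 CPM and at 42.5 against 22.7 CPM in the same classes. The Fstl1 call in principal-like cells was lost under 5 of 10 alternatives, size factors among them.

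Target genes of the pathway, the Id transcription regulators, were among those called higher in db/db fructose over db/db control. In connecting tubule-like cells Id1 was at 19.4 CPM in db/db fructose and 6.19 CPM in db/db control, Id2 at 645 and 309 CPM and Id3 at 365 and 186 CPM. The signal carriers Smad1, at 25.8 and 7.74 CPM, and Smad4, at 81.1 and 49.5 CPM, were called higher there too. The calls of Smad4 and Id1 were lost under 5 and 6 of 10 alternatives, and Smad4 stood at 0.38 with size factors. In principal-like cells Id4 was at 70.2 and 19.1 CPM and the receptor gene Bmpr1a at 77.6 and 49.1 CPM, both called higher, the second lost under 5 of 10 alternatives. Id1, Id2 and Id3 were not called in principal-like cells, with log2 ratios of 1.15, 0.36 and -0.15.

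In db/db control over db/m control, 24 of the 58 were measured in connecting tubule-like cells, with 0 called higher and 3 lower, and 27 in principal-like cells, with 2 called higher and 5 lower. All genes were called higher and lower at 2.12% and 10.9% in connecting tubule-like cells and at 3.59% and 6.04% in principal-like cells. The list medians were -0.30 and -0.16, against -0.24 and -0.09 over all genes. Bmp3 was called higher in principal-like cells at 44.3 CPM in db/db control against 5.72 CPM in db/m control. The endothelial co-receptor gene Eng was called higher there too, at 16.8 against 3.81 CPM (14 against 6 UMIs). That call was lost with free RNA subtracted.

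The genes called lower in db/db control than in db/m control were Fstl1 and the BMP-binding membrane protein gene Crim1 in both classes, and in only 1 of them Bmpr1a, Acvr2b, Dand5 and Id1. Fstl1 was at 7.74 CPM in db/db control and 51.0 CPM in db/m control in connecting tubule-like cells, and at 22.7 and 61.6 CPM in principal-like cells. Crim1 was at 21.7 and 45.6 CPM and at 28.7 and 47.0 CPM. Bmpr1a, a type I receptor, was at 37.1 and 69.3 CPM in connecting tubule-like cells. With size factors, or with mitochondrial UMIs left out, neither Crim1 nor Bmpr1a was called in connecting tubule-like cells, nor Crim1 in principal-like cells. Fstl1, Acvr2b and Dand5 were called under all 10 alternatives, and Id1 under 9. In principal-like cells the type II receptor gene Acvr2b was at 7.18 and 24.1 CPM, the antagonist gene Dand5 at 5.98 and 19.1 CPM and Id1 at 9.57 and 22.9 CPM (8 and 36 UMIs). Id2, Id3 and Id4 were not called there, with log2 ratios of -0.33, 0.51 and 1.11. In connecting tubule-like cells Id1, Id2 and Id3 were not called, at -1.41, -0.35 and -0.53.

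**Figure D5:**
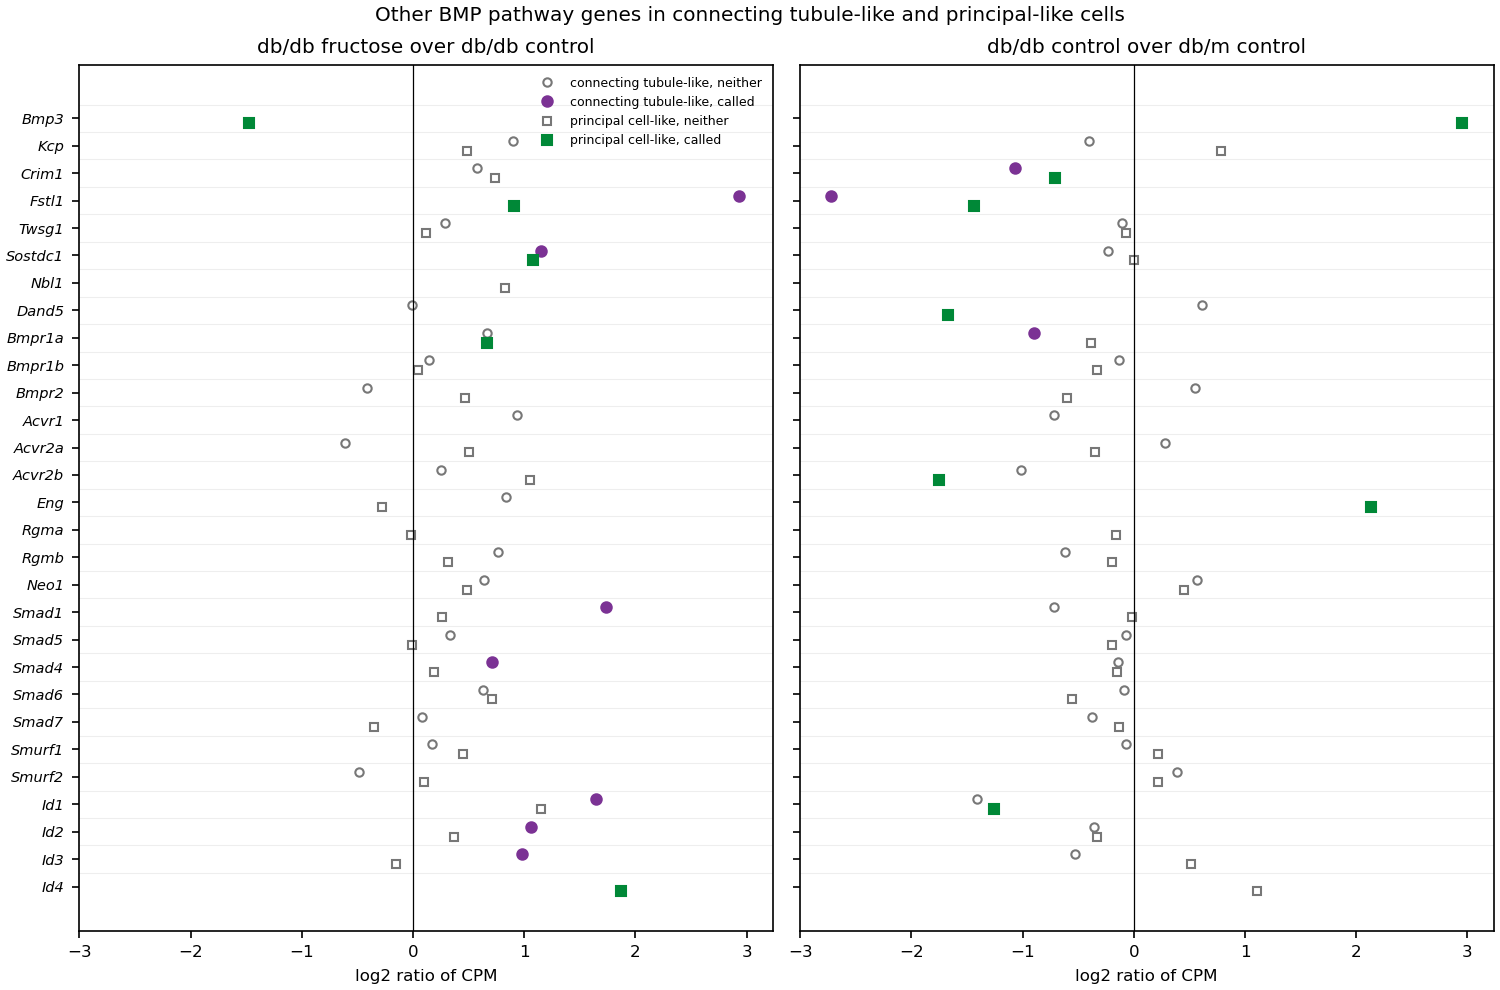
Log2 ratios of CPM of the other pathway genes measured in connecting tubule-like (circles) and principal-like (squares) cells, filled where called, db/db fructose over db/db control on the left and db/db control over db/m control on the right. Bmp3 is called lower on the left, at -1.47, where Fstl1, Sostdc1 and Id genes are called higher.

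In the endothelium-like classes several antagonists and feedback genes had called ratios. Sost, sclerostin, was at 111 CPM in db/db fructose, 258 CPM in db/db control and 40.7 CPM in db/m control in the cells not led by Ehd3. Its log2 ratio was -1.22 (-1.53 to -0.92) for db/db fructose over db/db control and 2.67 (1.997 to 3.42) in db/db control over db/m control. Sost was higher in Ehd3-led cells, at 457, 445 and 267 CPM in the same libraries. There the same ratios were 0.04 (-0.12 to 0.20), not called, and 0.73 (0.51 to 0.97), called higher. In the cells not led by Ehd3, Smad6, an inhibitory SMAD, was at 156 CPM in db/db control and 66.4 CPM in db/m control, and Hey1 was lower at 32.9 against 77.1 CPM. In Ehd3-led cells Smad6 was at 573 against 525 CPM and Hey1 at 22.3 against 28.1 CPM, neither of them called. Bambi, a decoy receptor, was at 185 CPM in db/db fructose, 104 CPM in db/db control and 170 CPM in db/m control in Ehd3-led cells, called in both comparisons. In the same cells Sostdc1 at 36.1 against 13.4 CPM and Twsg1 at 19.2 against 6.10 CPM were called higher in db/db control than in db/m control, and the chordin protease gene Bmp1 lower at 10.8 against 26.8 CPM. Sostdc1 was at 266 and 314 CPM in connecting tubule-like cells of those libraries, and the part of free RNA in its level in Ehd3-led cells was not tested.

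In the other classes compared, Id1 was called higher in both comparisons in proximal tubule-like cells, at 97.2 CPM in db/db fructose, 32.4 CPM in db/db control and 11.4 CPM in db/m control. Its log2 ratio was 1.58 (1.41 to 1.76) for db/db fructose over db/db control and 1.50 (1.202 to 1.81) in db/db control over db/m control, in a class whose clusters differed between the libraries as given above. Id4 was called higher in db/db fructose than in db/db control in proximal tubule-like cells, at 20.8 against 7.10 CPM, and in thick ascending limb-like cells, at 31.0 against 14.1 CPM. Fstl1 in thick ascending limb-like cells was at 20.8, 6.59 and 12.1 CPM in the 3 libraries, called higher in db/db fructose than in db/db control and lower in db/db control than in db/m control. Nbl1 and Id3 in mural-like cells were called lower in db/db control than in db/m control, at 27.8 against 92.0 CPM and 509 against 833 CPM. In mononuclear phagocyte-like cells Sostdc1 was called higher in both comparisons, at 62.0, 38.7 and 12.1 CPM in db/db fructose, db/db control and db/m control. In connecting tubule-like cells it was at 589, 266 and 314 CPM in the same libraries. What free RNA would bring of Sostdc1 is not given, so no expression by phagocyte-like cells is read from these levels. In intercalated-like cells the type I receptor gene Bmpr1b was called lower in db/db control than in db/m control, at 16.2 against 43.0 CPM. There 25.1% of all genes were called higher and 13.6% lower. The summed intercalated cell markers were also lower in db/db control, as given above, and their part in the Bmpr1b ratio was not tested. In distal convoluted tubule-like cells Fstl3, a follistatin-related binding protein, was called lower in db/db fructose than in db/db control, at 10.1 against 20.6 CPM.

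Eng was called higher in db/db control than in db/m control in further classes: at 18.8 CPM (60 UMIs) against 1.51 CPM (4 UMIs) in thick ascending limb-like cells, with a log2 ratio of 3.64 (2.21 to 5.56). It was at 18.3 against 2.86 CPM in intercalated-like cells and at 19.6 against 7.87 CPM in proximal tubule-like cells. In distal convoluted tubule-like cells it was called higher in db/db fructose than in db/db control, at 30.9 against 14.6 CPM. Eng is an endothelial gene, and the summed endothelial markers in those classes were at 100 against 80.4 CPM, 120 against 34.4 CPM, 99.4 against 52.5 CPM and 118 against 84.2 CPM. Their part in the Eng differences was not tested.

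The remaining genes with the highest or lowest called ratios were spread over classes. In db/db fructose over db/db control, Id1 was called higher in distal convoluted tubule-like cells, at 24.5 against 11.99 CPM, and Id3 in mononuclear phagocyte-like cells, at 74.8 against 44.3 CPM. Bambi and Nbl1 were called higher in the endothelium-like cells not led by Ehd3, at 63.7 against 32.9 CPM and 36.0 against 19.2 CPM. The ligand gene Bmp8a, at 33.7 against 13.8 CPM, and Dand5, at 10.4 against 4.06 CPM, were called higher in intercalated-like cells. In mural-like cells the ubiquitin ligase genes Smurf1 and Smurf2 were called higher, at 73.8 against 31.8 CPM and 76.4 against 35.8 CPM, and Sost was called lower, at 2.63 CPM (2 UMIs) against 19.9 CPM (5 UMIs).

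In db/db control over db/m control, Id3 was called higher in thick ascending limb-like cells, at 40.1 against 25.7 CPM, and lower in distal convoluted tubule-like cells, at 62.0 against 96.7 CPM. Smurf2 was called lower there too, at 18.8 against 29.8 CPM, and Acvr2b in proximal tubule-like cells, at 10.2 against 17.7 CPM. In intercalated-like cells Id1 was called higher, at 33.3 against 15.8 CPM, and Bmp3 lower, at 2.84 CPM against 10.0 CPM (7 UMIs each). The marker differences given above for that class hold here too, and their part in both ratios was not tested. In erythroid-like cells Crim1 was called higher, at 54.4 CPM (13 UMIs) against 12.3 CPM (3 UMIs), and Id1 lower, at 4.18 CPM (1 UMI) against 36.8 CPM (9 UMIs).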

How the data were processed

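Whole kidneys were digested and captured as single cells, per the labels' protocols. The authors aligned and counted with Cell Ranger 6.0.0 on mm10, per the submitters' processing notes, and deposited raw UMI counts per gene and barcode for 1 library per group. From these counts, barcodes were used if 200 genes were detected and mitochondrial UMIs did not exceed 50%, and the highest Scrublet doublet scores were removed at 0.8% per 1000 barcodes (16.3%, 21.2% and 10.8% of barcodes in db/db fructose, db/db control and db/m control). Cells were clustered in scanpy 1.11.5 (1987 variable genes without the 6 members and the other genes of the pathway list, of which 1 is not reported here, 30 components, Leiden resolution 1), giving 29 clusters. Connecting tubule and principal cells were split by a separate clustering at resolution 0.5. Clusters were named by the fold of fixed markers over the median cluster. That way of naming, the split of endothelium by Ehd3 and the Nos1 and Pappa2-led cluster were settled after the clusters were seen, as was leaving unnamed the sub-clusters led by other segments' genes. Ratios have exact conditional binomial intervals, levels exact Poisson and shares exact Clopper-Pearson intervals. UMIs of 1 library are not replicates. The ratio computation was checked on simulated counts. The members and gene lists were chosen with earlier results of these data known. Other pathway genes are named where called in connecting tubule-like or principal-like cells, and otherwise as the 2 highest and 2 lowest called ratios of a class. Genes most like a member are the 3 highest correlations among genes with at least 100 UMIs. Levels are not compared between genes, since lengths were not used. Other filters, doublets kept, resolution 2, free RNA subtracted, size factors, other thresholds, mitochondrial UMIs left out and shared barcodes left out were tried.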

Additional observations from a re-analysis of the deposited data

Results flagged for a closer look

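Bmp4 had called ratios of opposite sign between classes in each comparison. The difference between classes was not tested. For db/db control over db/m control its log2 ratio was 1.59 in intercalated-like cells and -0.60 in thick ascending limb-like cells. For db/db fructose over db/db control it was 1.41 in Ehd3-led endothelium-like cells (22 against 7 UMIs) and 1.24 in mural-like cells (64 against 9 UMIs), and -2.42 in mononuclear phagocyte-like cells (2 against 11 UMIs). Free RNA was estimated to bring 16.2, 10.1 and 11.9 CPM of Bmp4 in db/db fructose, db/db control and db/m control. Bmp4 in Ehd3-led cells, at 14.3 and 5.38 CPM in db/db fructose and db/db control, lay under that, and in mononuclear phagocyte-like cells it was at 2.34 and 12.5 CPM. All genes were called higher in Ehd3-led cells at 9.55% and lower in mononuclear phagocyte-like cells at 2.61%.

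Barcodes that were not kept as cells, most of them doublet calls or over the mitochondrial limit, also held member UMIs above the db/m control level. Grem1 was at 4.05 CPM (interval 2.89 to 5.51) in db/db fructose and 4.56 CPM (3.68 to 5.59) in db/db control, against 1.35 CPM in db/m control. The db/db fructose and db/db control intervals overlapped there. Bmp2 was at 3.74 CPM in db/db fructose, against 1.01 CPM in db/m control. Bmp4 was at 24.5 CPM in db/db fructose, against 14.2 CPM in db/m control. Bmp6 was at 47.2 CPM in db/db fructose and 32.8 CPM in db/db control, against 20.9 CPM in db/m control. Bmp7 was at 22.5 CPM in db/db fructose and 19.6 CPM in db/db control, against 11.7 CPM in db/m control.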

How the results depend on the processing

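No paired analysis was possible because each group has 1 library, and for the same reason no library could be left out. Under the 8 alternatives run on ratios, 2 of them added after seeing the data (mitochondrial UMIs left out of the totals, barcodes found in more than 1 library left out), Grem1 was called the same way in principal-like and connecting tubule-like cells in both comparisons. Its log2 ratio of db/db fructose over db/db control ran from -3.02 to -2.55 and from -1.30 to -0.90, and that of db/db control over db/m control from 0.96 to 1.07 and from 1.17 to 1.51. Bmper in Ehd3-led cells was called higher in all 8 for db/db control over db/m control (1.42 to 1.76) and lower in 7 for db/db fructose over db/db control (-1.01 to -0.56). The 8 do not include the 2-fold limit, which is among the 10 alternatives used for the other pathway genes. As counted, Grem1 fell short of 2-fold in principal-like cells for db/db control over db/m control. It also fell short in connecting tubule-like cells for db/db fructose over db/db control, as did Bmper in Ehd3-led cells. Bmp4 in thick ascending limb-like cells was called lower in 6 of 8 for db/db control over db/m control. With doublets kept, 3 of the 6 members kept their leading class and 1 was called there in db/db fructose over db/db control, against 2 as reported and 4 with median-of-ratios size factors. Those size factors moved the median of all genes by 0.25 in connecting tubule-like and 0.09 in principal-like cells for db/db control over db/m control, and by -0.34 and -0.19 for db/db fructose over db/db control. With them Bmp6 in Ehd3-led cells was called lower, at -0.66, in db/db fructose than in db/db control. Counts of other pathway genes moved too. For db/db control over db/m control in connecting tubule-like cells, 1 was higher and 1 lower with mitochondrial UMIs left out or size factors used. In principal-like cells 4 were higher with either or with free RNA subtracted. For db/db fructose over db/db control in connecting tubule-like cells, 4 were lower with free RNA subtracted and 1 with mitochondrial UMIs left out or size factors used. In principal-like cells 2 were higher under free RNA subtraction, mitochondrial UMIs left out, a 2-fold limit or size factors, and 4 were lower with free RNA subtracted. Not thinned, the share of principal-like cells with Grem1 was 12.3% in db/db fructose, 34.3% in db/db control and 18.2% in db/m control, and thinned to 500 UMIs it was 4.24% in db/m control. The causes were not tested. No called result changed sign. Depth limits the classes with few UMIs: a count of 0 allows up to 3 UMIs, a 1-sided 95% limit, or 3.42 CPM of Grem1 in the Nos1 and Pappa2-led cells of db/db fructose.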
